A study of Mus musculus with 147 samples.

Results

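The cells described here are somatic cells of the newborn and juvenile mouse testis that carried Nr2f2 transcripts and few transcripts of Sertoli, germ or Leydig cells. Single cells of wild-type mice of postnatal day (PND) 0 to PND14 were kept when Nr2f2 reached 100 CPM (unique molecular identifiers, UMIs, per 1000000 UMIs of that cell) and Sox9 stayed under 100 CPM, Ddx4 under 150 CPM and Cyp11a1 under 500 CPM. This rule kept 213 members out of 4788 wild-type cells of these ages that passed the filter on genes and UMIs (4.45%), and out of 12692 such cells in the series. The members were split at 500 CPM of Acta2 into 92 Acta2-high cells (43.2%) and the remaining Acta2-low cells. Nr2f2, Sox9, Ddx4 and Cyp11a1 chose the cells and Acta2 split them, so that no test between the classes is given for these 5 genes.

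The study followed male germ cells through development by a modified STRT-seq, which counts UMIs at the 3′ end of polyadenylated transcripts in single cells. All mice came from C57BL/6 females and BVSC males, which carry Blimp1-mVenus and Stella-ECFP reporters, and no member came from the Helq-null mice. After birth, testicular cells were picked by hand for the look of a germ cell, by the study's methods. The cell names give a DNA content of 2N for 194 members, of 4N for 2 and none for 17. The methods also describe sorting by Hoechst stain for ploidy, without naming the ages. The members are thus somatic cells that entered such a collection and not a census of the interstitium. The cells of one age and replicate number were treated as a pool, each postnatal pool came from a single gonad or animal and each fetal pool from a group of embryos by the study's sample list, and p-values measure the spread between pools. The members lay in 19 of the 24 pools of PND0 to PND14, with 2 to 44 members in a pool, and only 10 pools held 5 or more. They came from 31 libraries and carried 89 distinct well barcodes, of which 61 recurred in more than 1 library. Fetal cells of the same cross (E13.5 to E18.5) that had been sorted as negative for the reporters and met the same thresholds served for comparison (266 cells), as did 337 cells of the postnatal pools with Sox9 at 100 CPM or more and Nr2f2 under 100 CPM.

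The seminiferous cords of the mouse testis are wrapped by peritubular myoid cells, flat contractile cells that share actin and myosin genes with smooth muscle and lay down the basement membrane of the cord together with Sertoli cells. The interstitial space between cords holds fibroblast-like stromal cells, including precursors of steroid-producing Leydig cells. Nr2f2 (COUP-TFII, a nuclear receptor) and Pdgfra (a receptor for platelet-derived growth factor) are known in both compartments, while Acta2 (smooth muscle actin) and Myh11 (smooth muscle myosin heavy chain) mark the contractile one.

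The label of these cells was checked against its markers. Pdgfra was detected in 97.8% of Acta2-high members (90 of 92, exact 95% interval 92.4 to 99.7) and in 97.5% of Acta2-low members (92.9 to 99.5), against 32% of Sox9-positive cells, although the latter were deeper (median 133010 UMIs per cell against 89871.5 and 106511). Myh11 was detected in 84.8% of Acta2-high members and 23.1% of Acta2-low members, and in 26.2% of Ddx4-positive germ cells, which are not known to use it, at a median of 284678 UMIs. With cells thinned to 30000 UMIs, which left out 9, 10 and 81 shallower cells, these shares were 80.7%, 16.2% and 8.83%, the Acta2-low share lying nearer to that of germ cells than to that of Acta2-high cells. Pdgfra was thus found in both classes, and Myh11 mostly in the Acta2-high cells.

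Markers of other interstitial cells differed among themselves. Rgs5, a marker of pericytes, was detected in 2.17% of Acta2-high and 3.31% of Acta2-low members, against 3.26% of Sox9-positive cells and 16% of germ cells, and Pecam1, a marker of endothelium, in 10.9% and 13.2% against 21.1% of Sox9-positive cells. Cdh5, an adhesion gene of endothelium, was detected in 40.2% of Acta2-high and 75.2% of Acta2-low members against 13.4% of Sox9-positive cells, and in 21.7%, 56.8% and 4.98% after thinning. Insl3 and Lhcgr, genes of Leydig cells, were detected in 12.4% and 10.7% of Acta2-low and in 3.26% and 2.17% of Acta2-high members, against 9.20% and 5.93% of Sox9-positive cells. After thinning these shares were 6.31% and 9.01%, 2.41% and 0%, and 2.49% and 2.18%. Kcnj8, a potassium channel of pericytes, had no UMI in the Acta2-low sums described below. It averaged 12.8 CPM in the Acta2-high sums, with UMIs in 6 of 8 pools, and did not pass the filter on low counts. Its adjusted p without the filter was 0.00236, which is not comparable with adjusted p from the filtered fit.

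The members held a median of 99388 UMIs (11491 to 522655) and 6231 genes per cell, and each carried at least 3 UMIs of Nr2f2, with a median of 48. Just inside the Nr2f2 threshold 9 members lay between 100 and 150 CPM, and just outside it 13 otherwise eligible cells lay between 50 and 100 CPM. Of 340 cells over the Nr2f2 threshold, 80 were over the limit for Ddx4, 49 over that for Sox9 and 5 over that for Cyp11a1, some of them over more than 1 limit. Around the Acta2 split, 17 members lay between 500 and 1000 CPM and 15 between 250 and 500 CPM, the nearest at 516 and 495 CPM. Median Acta2 was 1928 CPM in Acta2-high and 25.6 CPM in Acta2-low cells, of which 32 held no Acta2 UMI at all. For comparisons between classes, UMIs were summed per pool and class where a class had 5 or more cells, giving 8 pools with both classes and 357550 to 4734268 UMIs in a sum.

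One pool stood apart. In PND14 replicate 1 the Acta2-low sum held 2223 CPM of summed germ cell markers (12 genes, with Ddx4 among them), against 197 to 1027 CPM in the other Acta2-low sums, and its Acta2-high sum held 784 CPM, the highest of that class. The pool was the only one later than PND8 with enough cells, so its age, its germ cell transcripts and its other differences cannot be told apart, and results that rest on it are given with and without it. Over the 8 pools, summed germ cell markers were 437 ± 186 CPM in Acta2-high and 709 ± 667 CPM in Acta2-low cells (SD, n = 8), with ranges of 220 to 784 and 197 to 2223 CPM. None of the 6 germ cell markers tested of 11 passed the test between the classes. Summed Sertoli markers (14 genes, with Sox9 among them) were 411 CPM (89.5 to 1607) in Acta2-high and 435 CPM (179 to 801) in Acta2-low sums. Summed red blood cell markers were 62.2 CPM (1.33 to 315) and 340 CPM (7.11 to 1969), and summed endothelial markers 61.1 CPM (7.52 to 117.5) and 127.8 CPM (47.4 to 197). Summed pericyte and vascular smooth muscle markers were 191 CPM (72.9 to 295) in Acta2-high and 133.3 CPM (54.96 to 254) in Acta2-low sums. Of these 10 genes 3 were tested, and all 3 lay above 0 (median log2 fold change 0.87) without a call. The part of all these transcripts in the results below was not tested, apart from repeats without the cells that were high in them. No such repeat was made for the pericyte and vascular smooth muscle markers.

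Acta2-high and Acta2-low members of the same pools were compared first, to see what goes with smooth muscle actin among Nr2f2-positive cells. Of the tested genes of each list, 10 of 15 contractile and 5 of 15 basement membrane genes were higher in the Acta2-high cells, 4 of 12 imprinted genes were lower, and 2 of 24 matrix genes were higher and 3 lower. With the pool as a block, 199 of 8218 tested genes (2.42%) were called at an FDR of 0.05, 1.61% of those tested higher in Acta2-high cells and 67 genes (0.815%) lower (edgeR quasi-likelihood test, 8 pools). Without the PND14 pool 247 were called, of which 53.8% were higher against 66.3% with it, and 176 of the 199 genes were called again. DESeq2 called 272 higher and 220 lower. In cells of at least 50000 UMIs alone, with fewer cells and sums, 52 genes were called, 50 of them among the 199.

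Acta2 itself ranged from 1174 to 2929 CPM in the 8 Acta2-high sums (median 2195 CPM) and from 28.6 to 179 CPM in the Acta2-low sums (median 80.7 CPM), as the split required. Myh11, on chromosome 16 (mm10 chr16:14194535-14291372, minus strand), ranged from 103.1 to 1270 CPM in Acta2-high sums with a median of 236 CPM, and from 0 to 25.9 CPM in Acta2-low sums with a median of 7.28 CPM. The classes did not overlap, and Myh11 was higher in Acta2-high cells in each of the 8 pools (log2 fold change 5.21 ± 0.58 SE, adjusted p = 1.7e-05). The tropomyosin gene Tpm1, whose product runs along actin filaments, was well expressed in both classes and still did not overlap, with 844 to 1619 CPM (median 1360) in Acta2-high and 324 to 560 CPM (median 399) in Acta2-low sums (log2 fold change 1.71 ± 0.18, adjusted p = 7.17e-06). Tpm2 followed the same pattern at 476 to 1534 CPM against 12.2 to 344 CPM (2.29, adjusted p = 0.00534).

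Of 23 genes listed for smooth muscle contraction, 15 were tested and 10 of these were higher in Acta2-high cells, none was lower, and the median log2 fold change of the tested genes was 1.72 against -0.02 over all genes. Besides Myh11, Tpm1 and Tpm2 they included Myl9 (the regulatory light chain of smooth muscle myosin, 1923 ± 615 against 701 ± 284 CPM), Mylk (its kinase), Smtn and Lmod1 (actin-associated proteins), Flna (filamin A) and Csrp1. The calls of Mylk and Lmod1 were lost when one of several pools was left out, with adjusted p up to 0.121 and 0.0915. Desmin (Des), the intermediate filament gene of muscle, did not follow them, at 67.7 ± 57.5 CPM in Acta2-high and 91.3 ± 69.9 CPM in Acta2-low sums (log2 fold change -0.49 ± 0.62, adjusted p = 0.858). Cald1 (caldesmon) was at 1091 ± 260 and 729 ± 212 CPM and missed the threshold (adjusted p = 0.156).

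Of the other 8 listed genes 7 did not pass the filter on low counts, and Mrtfa had no row under that name. The fit without the filter, in which many more genes were tested, called 4 of the 7. Tagln (transgelin) lay at 1.14 to 201 CPM in Acta2-high sums and at 0 to 3.51 CPM in Acta2-low sums. It was higher in all 8 pools (log2 fold change 6.60 ± 0.72 without the filter, adjusted p = 3.36e-17). With the filter Myh11, at 5.21 ± 0.58, had an adjusted p of 1.7e-05, so adjusted p with and without the filter are not comparable. Myocd, the myocardin coactivator of smooth muscle genes, averaged 37.1 CPM against 0.171 CPM and was also higher in all 8 pools. Cnn1 (calponin) was uneven, at 400 CPM in the PND14 Acta2-high sum and at 0 CPM in those of PND2 and PND5, against at most 4.08 CPM in Acta2-low sums. Actg2, the enteric smooth muscle actin, averaged 57.3 and 2.07 CPM, and was higher in 6 of 8 pools. The remaining genes were not called without the filter, with log2 fold changes of 3.71 for Kcnmb1 (adjusted p = 0.418), -0.85 for Pln (0.961) and -0.0044 for Synpo2 (0.998).

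**Figure D1:**
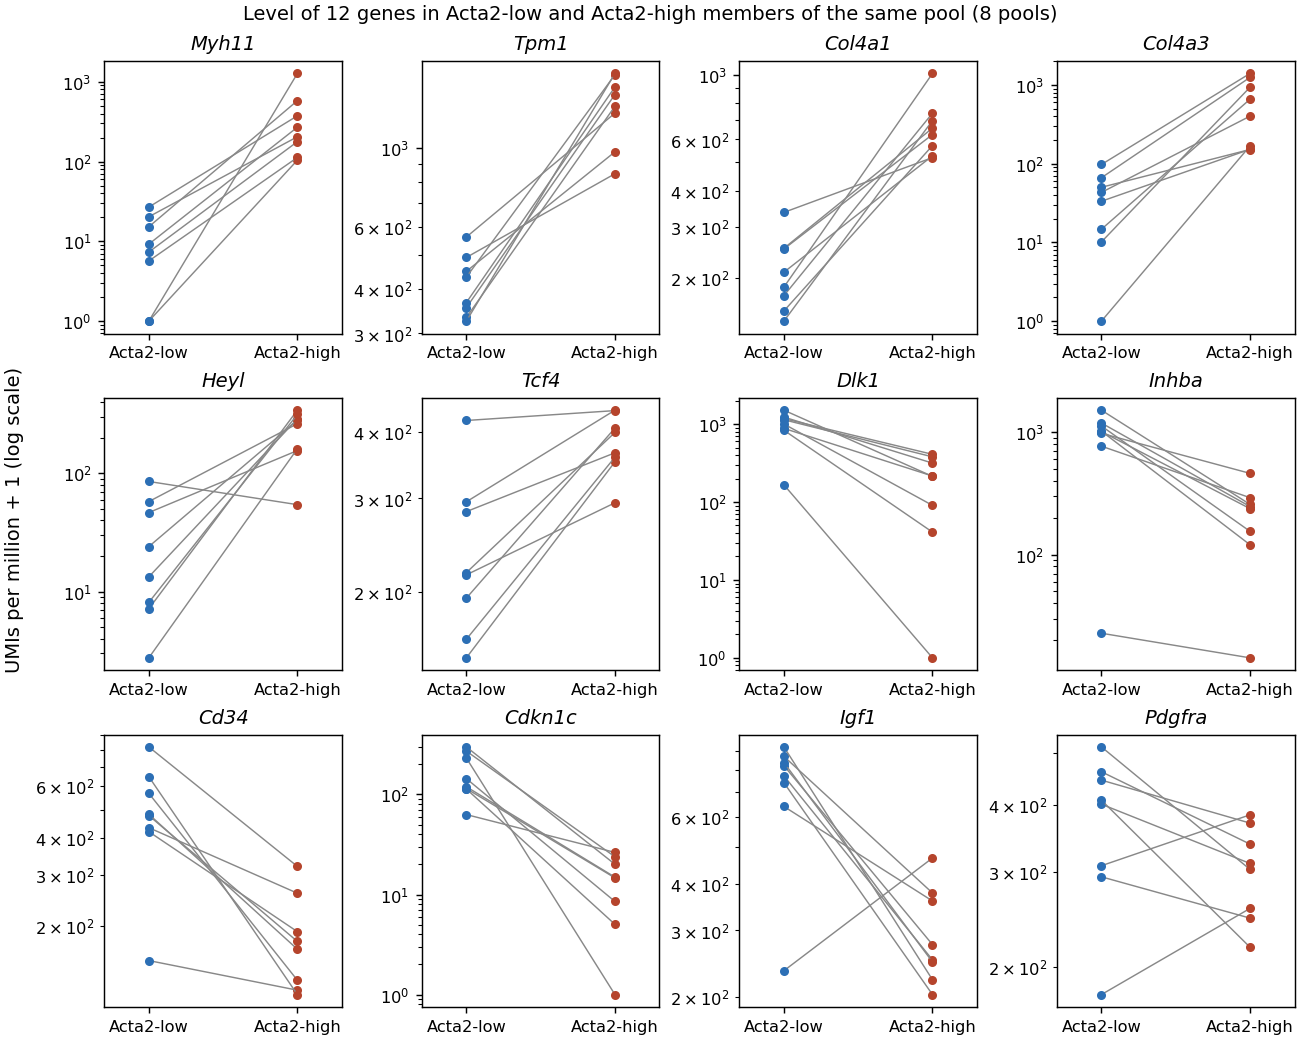
CPM (plus 1, log axis) of 12 genes in the Acta2-low sum (blue) and the Acta2-high sum (red) of each of 8 pools, with a line joining the sums of a pool. Myh11, Tpm1, Col4a1, Col4a3 and Tcf4 rise along every line, Dlk1, Inhba, Cd34 and Cdkn1c fall along every line, and Pdgfra shows no common direction.

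Chains of collagen IV were higher in Acta2-high cells as well. Collagen IV is the network-forming collagen of basement membranes, and its chains are encoded by gene pairs that lie head to head. Col4a1 and Col4a2 adjoin on chromosome 8 (chr8:11198423-11312826, minus strand, and chr8:11312805-11449287, plus strand), and Col4a3 and Col4a4 on chromosome 1 (chr1:82586921-82722059, plus strand, and chr1:82448423-82586849, minus strand). Col4a1 ranged from 519 to 1013 CPM (median 639) in Acta2-high sums and from 140.8 to 335 CPM (median 196) in Acta2-low sums, with no overlap (log2 fold change 1.72 ± 0.21, adjusted p = 4.54e-05). Col4a2 was at 532 ± 148 against 174 ± 61.3 CPM (1.71 ± 0.20, adjusted p = 3.65e-05). The difference in the other pair was larger. Col4a3 ranged from 150 to 1398 CPM (median 529) against 0 to 96.6 CPM (median 37.2; log2 fold change 4.07 ± 0.49, adjusted p = 5.29e-05), and Col4a4 from 225 to 1332 CPM (median 655) against 43.7 to 231 CPM (median 105.2; 2.59 ± 0.25, adjusted p = 4.41e-06).

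Of 20 basement membrane genes 15 were tested, and these 4 and Col15a1 were the 5 that were higher, with none lower and a median log2 fold change of 0.56. The call of Col15a1, a collagen at the outer face of basement membranes, was lost without any of 6 pools (adjusted p up to 0.154). None of the tested laminin, nidogen or perlecan genes passed the test. The calls in this list were thus chains of collagen. Col4a5, a further collagen IV chain, was at 47.96 and 30.8 CPM and higher in Acta2-high cells in 8 of 8 pools, without a call (0.73, adjusted p = 0.563).

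An endothelin receptor, a Notch target and a phosphatase were also among the higher genes. Ednrb, an endothelin receptor, ranged from 20 to 124.8 CPM in Acta2-high sums. It was at 0 CPM in 6 of the 8 Acta2-low sums and at most 2.53 CPM in the others (log2 fold change 7.0, adjusted p = 1.06e-05). It was detected in 41.3% of Acta2-high members, 4.96% of Acta2-low members and 5.03% of the deeper germ cells, and after thinning to 30000 UMIs in 38.6%, 3.60% and 1.37%. Heyl, a transcriptional target of Notch, was at 53.3 to 341 CPM against 1.76 to 84.4 CPM, higher in 7 of 8 pools with PND14 as the exception (3.49 ± 0.62, adjusted p = 0.00322), while the other 4 Notch pathway genes tested did not pass, although Hes1, another Notch target, did without PND14 (0.83, adjusted p = 0.0839, and 0.94, adjusted p = 0.0461, without it). Dusp6, a phosphatase that is induced by and acts on ERK kinases, was at 92.2 to 282 CPM against 2.47 to 19.9 CPM without overlap (4.32 ± 0.34, adjusted p = 5.03e-07). Foxs1, a forkhead factor of perivascular and other mesenchyme, was at 145.4 to 409 CPM against 0 to 61.6 CPM (3.92 ± 0.51), and Igfbp5, a binding protein for insulin-like growth factors, at a mean of 411 against 50.3 CPM (3.33 ± 0.52).

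Other genes with the largest rises in every pool were Dner (6.57), a Notch-family ligand of neurons, and Fbxl22 (5.01), an F-box protein of muscle Z-discs, followed by Tmem204 (4.98), Msrb3 (4.36), Art3 (4.23) and Cplx2 (4.20), values that are log2 fold changes. Dner averaged 58.5 CPM in Acta2-high and 0.531 CPM in Acta2-low sums, and Fbxl22 371 and 22.2 CPM. The muscle-associated long noncoding RNA Carmn averaged 194 against 10.49 CPM and did not overlap (4.04 ± 0.61, adjusted p = 0.000607).

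Smooth muscle genes are known targets of serum response factor (SRF), which binds the CArG box, a pair of C, a run of A or T and a pair of G. The box was searched on both strands, on which its pattern reads the same, in the 250 bases before each RefSeq start (GRCm38.p6, the mm10 build). Of the genes higher in Acta2-high cells 92 had a promoter in the table, and 7 of them (7.61%) held a box. Among genes that were lower it was 1 of 49 (2.04%), namely Meg3, among all tested genes 89 of 6493 (1.37%), and among all promoters listed 439 of 27025 (1.62%). Acta2 and Cnn1 had no exact match to this pattern in this window, and Myh11, Tagln and Actg2 had no entry. Boxes that depart from the pattern by 1 letter were not counted, so the search does not show that a gene lacks a box. These counts describe letters in a window and not bound sites. The windows of the higher genes with a box, other than Gsto1, are printed with the box in capitals and the strand of the gene.
Myl9 (chr2:156775278-156775337, plus): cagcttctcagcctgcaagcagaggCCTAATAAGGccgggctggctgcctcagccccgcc
Cnn2 (chr10:79988519-79988578, plus): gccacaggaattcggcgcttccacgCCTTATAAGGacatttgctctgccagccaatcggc
Myl6 (chr10:128493025-128493084, minus): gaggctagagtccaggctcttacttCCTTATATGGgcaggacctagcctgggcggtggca
Dmd (chrX:82948747-82948806, plus): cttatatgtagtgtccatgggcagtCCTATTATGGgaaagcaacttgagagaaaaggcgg
Fbxl22 (chr9:66514781-66514840, minus): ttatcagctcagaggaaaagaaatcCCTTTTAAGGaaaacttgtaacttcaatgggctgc
Asb2 (chr12:103356031-103356090, minus): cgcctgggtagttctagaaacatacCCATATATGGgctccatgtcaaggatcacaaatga
Myl9 and Myl6 encode myosin light chains, Cnn2 a calponin, Dmd dystrophin and Asb2 a subunit of a ubiquitin ligase of muscle. Their log2 fold changes were 1.53 for Myl9, 2.03 for Cnn2, 0.86 for Myl6, 1.90 for Dmd, 5.01 for Fbxl22 and 2.84 for Asb2. The seventh gene with a box was Gsto1, a glutathione transferase (1.10).

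Genes that were higher in Acta2-low cells included imprinted genes, which are expressed from one parental allele and often act on growth. Dlk1, a transmembrane protein of the Delta family kept in progenitor cells (chr12:109452823-109463336), ranged from 165 to 1509 CPM in Acta2-low sums with a median of 1071 CPM and from 0 to 409 CPM in Acta2-high sums with a median of 214 CPM. It was higher in the Acta2-low cells of all 8 pools, and in both classes PND14 was the lowest (log2 fold change of Acta2-high over Acta2-low -2.68 ± 0.36, adjusted p = 0.000143). Meg3, a noncoding RNA of the same imprinted cluster that is expressed from the other allele (chr12:109541001-109571726), ranged from 202 to 1314 CPM (median 1140) against 48.01 to 688 CPM (median 305), again in all 8 pools (-1.54 ± 0.15, adjusted p = 5.5e-06). Cdkn1c (p57, an inhibitor of cyclin-dependent kinases on chromosome 7) ranged from 61.9 to 298 CPM against 0 to 25.3 CPM with no overlap (-3.60 ± 0.49, adjusted p = 0.000195).

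Of 14 imprinted genes 12 were tested, these 3 and Peg3 were lower in Acta2-high cells and none was higher, with a median of -0.95 over the tested genes. Peg3 was at 182 ± 85.2 against 355 ± 136.03 CPM, and its call was lost without any of 7 pools but stood without PND14 (adjusted p 0.00387 to 0.124). H19 did not move with them, at 427 ± 230 CPM in Acta2-high and 233 ± 113.98 CPM in Acta2-low sums (1.14 ± 0.41, adjusted p = 0.218).

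Some growth factors and receptors were higher in Acta2-low cells as well. Inhba, the subunit of activin A, ranged from 21.8 to 1512 CPM in Acta2-low sums (median 1015) and from 13.3 to 460 CPM in Acta2-high sums (median 241), and was lower in Acta2-high cells in all 8 pools (-2.04 ± 0.24, adjusted p = 3.65e-05). Without PND14, whose sums were the lowest in both classes, the lowest Acta2-low value was 768 CPM. Igf1 (insulin-like growth factor 1) was at 233 to 923 CPM (median 798) against 201 to 467 CPM (median 262). It was lower in Acta2-high cells in 7 pools and higher at PND14, and its call (-1.25 ± 0.27, adjusted p = 0.0148) was lost without any of 4 pools but sharpened without PND14 (-1.54, adjusted p = 1.13e-05). Prlr, the prolactin receptor, averaged 263 against 33.5 CPM (-3.26 ± 0.43, adjusted p = 0.00013) and Agtr2, an angiotensin receptor of fetal and newborn mesenchyme, 232 against 23.8 CPM (-3.59 ± 0.72, adjusted p = 0.00745). Penk, the enkephalin precursor, averaged 542 against 175 CPM without overlap (-1.63 ± 0.23, adjusted p = 0.000204).

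Among 19 genes for niche factors and hormone receptors, 11 were tested and Inhba and Igf1 were the 2 that differed. Kitl (the ligand of Kit) averaged 61.6 CPM in Acta2-low and 16.6 CPM in Acta2-high sums and was lower in Acta2-high cells in 8 of 8 pools, yet missed the threshold (-2.08 ± 0.58, adjusted p = 0.0749, 0.0366 without PND14). Cxcl12 was at 983 ± 446 against 521 ± 248 CPM (adjusted p = 0.0983, 0.00527 without PND14). Gdnf, a factor for spermatogonial stem cells that peritubular cells are known to make, did not pass the filter. It ranged from 1.01 to 31.1 CPM in Acta2-high and from 0 to 7.02 CPM in Acta2-low sums, higher in Acta2-high cells in all 8 pools. Its adjusted p without the filter was 0.0727, which is not comparable with those of the filtered fit.

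Matrix genes split between the classes. Of 26 genes for fibrillar collagens and interstitial matrix, 24 were tested, 2 were higher and 3 lower in Acta2-high cells, with a median of -0.21. Dcn (decorin) ranged from 610 to 2738 CPM in Acta2-low and from 535 to 854 CPM in Acta2-high sums (-1.21 ± 0.20, adjusted p = 0.0014), and Lum (lumican) averaged 167 against 16.6 CPM (-4.24 ± 0.97, adjusted p = 0.0229). Lum was detected in 52.9% of Acta2-low and 17.4% of Acta2-high members and in 18.3% of the deeper germ cells, and after thinning in 45%, 9.64% and 4.58%. The calls of Lum and of Col5a2 (-1.42) were lost without any of 5 and 7 pools (adjusted p up to 0.0777 and 0.139). Biglycan (Bgn, 714 ± 221 against 414 ± 120 CPM) and Emilin1, a protein of elastic fibres (368 ± 86.8 against 146.4 ± 90 CPM), were higher in Acta2-high cells in all 8 pools. Col1a1, at 904 ± 144.9 and 1238 ± 426 CPM, passed the test only where PND14 or cells high in other lineages' markers were left out (adjusted p = 0.482 over all 8 pools and 0.0266 without PND14). Dermatopontin (Dpt, 17.2 against 232 CPM, -4.73) and asporin (Aspn, 8.71 against 86 CPM, -3.70) were among the genes with the largest falls, with Sbspon (-4.85), Nupr1 (-4.23), S100b (-3.85), Dhrs7 (-3.24) and Gas2 (-3.16).

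Pdgfra was at 217 to 383 CPM (median 307) in Acta2-high and 177 to 512 CPM (median 404) in Acta2-low sums. It was lower in Acta2-high cells in 6 of 8 pools, a difference that did not pass the test (-0.23 ± 0.19, adjusted p = 0.756). Tcf21, a factor of stromal progenitors, was at 1071 ± 414 and 612 ± 241 CPM, higher in Acta2-high cells in 7 of 8 pools, and missed the threshold (0.91 ± 0.28, adjusted p = 0.109, and 0.0436 to 0.254 with a pool left out). Of 18 genes listed for interstitial progenitors 14 were tested and 5 were called. Tcf4 was higher and Igf1, Lhx9, Cd34 and Dlk1 were lower in Acta2-high cells (median -0.05). Cd34, a surface sialomucin of stromal and vascular cells, was at 115.9 to 319 CPM against 152 to 816 CPM and lower in all 8 pools (-1.35 ± 0.23, adjusted p = 0.00183), whereas the calls of Lhx9 (-1.70) and Tcf4 (0.77) were lost without any of 6 and 4 pools, with adjusted p up to 0.145 and 0.103.

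Hedgehog signals from Sertoli cells reach both compartments, and its pathway genes were read in the same way. None of the 9 tested hedgehog genes passed the test, with Ptch1 (the receptor and target) at 340 ± 69.3 and 232 ± 147.5 CPM (0.82 ± 0.34, adjusted p = 0.313) and Hhip (an inhibitor that is also a target) at 185 ± 71.6 and 229 ± 111.5 CPM (-0.01 ± 0.42). The 3 tested genes for PDGF ligands and receptors, the 13 for TGF-beta and BMP and the 5 for steroid synthesis gave no call either. Of 21 tested cell cycle genes only Cdkn1c, the imprinted gene named above, passed. Mki67, a gene of dividing cells, was at 194 ± 69.6 and 177 ± 131.6 CPM (0.51 ± 0.38, adjusted p = 0.707). The 13 mitochondrial transcripts gave no call (median 0.17), and among 11 tested genes of the response to dissociation Nr4a1 was higher and Jun lower, the latter lost without any of 7 pools (adjusted p up to 0.0832). Cdh5, an adhesion gene of endothelium, was lower in Acta2-high cells (17.9 ± 12 against 71.9 ± 35.4 CPM, adjusted p = 0.0424, 0.0653 without PND14 and up to 0.157 with another pool left out), while Pecam1 did not pass the filter on low counts.

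**Figure D2:**
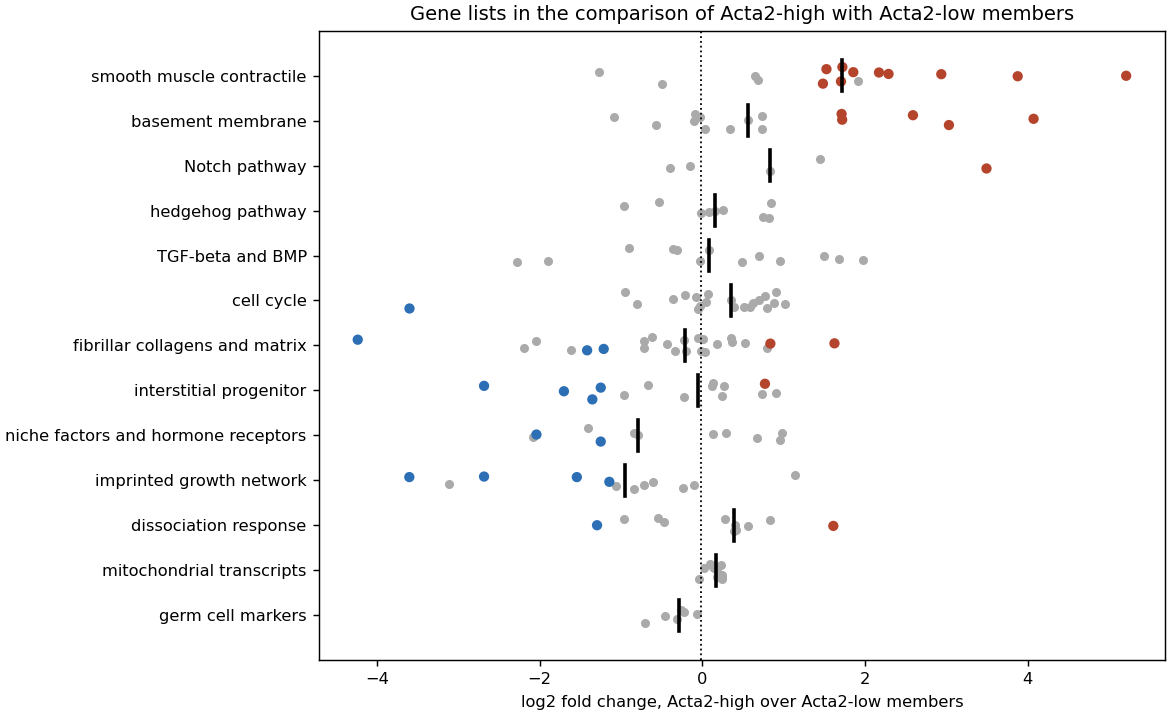
Log2 fold change of Acta2-high over Acta2-low members for the tested genes of 13 lists, 1 point a gene, with the genes called higher in red, those called lower in blue and the others in grey, and a bar at the median of each list. The contractile list lies furthest right (median 1.72) and the imprinted list furthest left (median -0.95), while the hedgehog and mitochondrial lists lie near the dotted line at the median of all genes (medians 0.16 and 0.17).

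Whether the classes changed in number or in content with age was asked next. The share of Acta2-high cells among members showed no trend with day. In the 10 pools with 5 or more members it averaged 48.4 ± 16.3% (SD, n = 10), from 22.2% at PND8 (2 of 9 cells, exact 95% interval 2.81 to 60) to 70% in PND6 replicate 2 (7 of 10 cells, 34.8 to 93.3), and it was 27.3% in the largest pool, PND2 replicate 1 (12 of 44 cells, 15 to 42.8). Pearson r with day was 0.063 (two-sided permutation p = 0.896) and Spearman rho 0.171 (p = 0.634, both 0.896 after Benjamini-Hochberg adjustment over the 2), and without the 2 pools farthest from the median day r was 0.032. Within replicate 1 pools r was 0.107 and within replicate 2 pools 0.330, over 5 pools each and with no test. A trend was not detectable with these numbers of cells, and the intervals, which cover counting error only, spanned much of the scale.

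**Figure D3:**
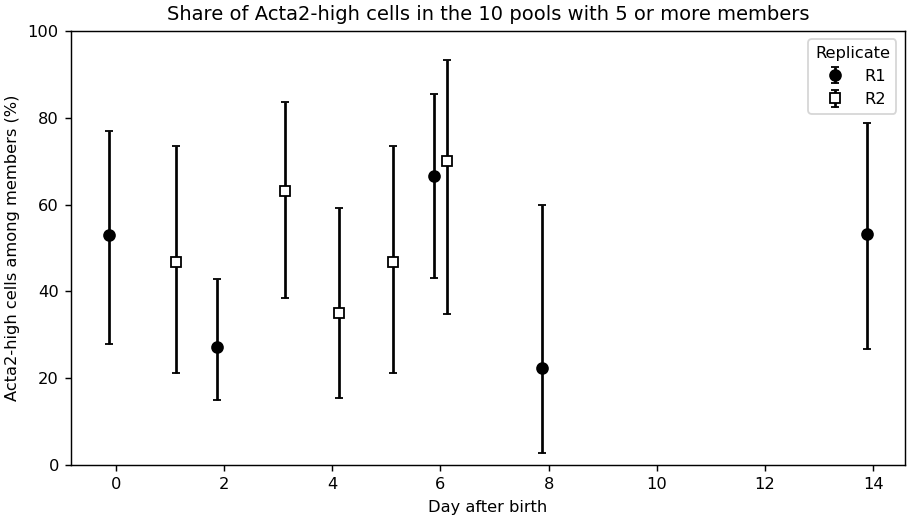
Share of Acta2-high cells among members (%) by day after birth in the 10 pools with at least 5 members, with exact 95% binomial intervals, replicate 1 as filled circles and replicate 2 as open squares (points of a day are set slightly apart). The shares scatter between 22.2% and 70% with no trend, and most intervals overlap.

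The content of Acta2-high cells did change with age. The slope per day was tested in 9 Acta2-high sums, and 28 of 10478 genes rose (0.267%) and 10 fell (0.0954%, 0.363% in either direction). DESeq2 called 85 rises and 65 falls. Without the PND14 pool 7 genes were called, all rises, of which Myh11, Col4a3 and Eln had been called with it. The other 4 were Tnnt2 (cardiac troponin T), S100a6, C1s1 and Adamts5.

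Myh11 climbed from 103.1 CPM at PND0 and 111.6 CPM at PND1 to 177, 204, 268 and 373 CPM at PND2, PND3, PND4 and PND5, stood at 579 and 366 CPM in the PND6 pools and reached 1270 CPM at PND14. The slope was a log2 change of 0.28 ± 0.03 per day (adjusted p = 0.000117), and 0.40 without PND14 (adjusted p = 0.00736). Col4a3 was at 150 to 167 CPM from PND0 to PND2, rose to 400, 657 and 1246 CPM at PND3, PND4 and PND5, and was at 934 and 736 CPM in the PND6 pools and 1398 CPM at PND14 (0.27 ± 0.06 per day, adjusted p = 0.0423, and 0.53 without PND14, adjusted p = 0.0065). Eln, the gene of elastin, stayed between 105.5 and 148 CPM from PND0 to PND4, lay between 414 and 529 CPM at PND5 and PND6 and reached 964 CPM at PND14 (0.26 ± 0.04 per day, adjusted p = 0.00656, and 0.41 without PND14, adjusted p = 0.0365). In these 3 genes the rise was thus seen within the first week, from low values in each pool up to PND2. The call of Col4a3 was lost without any of 6 pools (adjusted p up to 0.203), so that it is less firm than that of Myh11, which stood without any single pool.

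Of 19 contractile genes tested for a slope 4 rose, Myh11, Cnn1, Tpm2 and Hspb1 (a small heat shock protein of muscle), and the median slope of the list was 0.17 against -0.01 over all genes. The steepest slopes among well-expressed genes besides Cnn1 (0.49) belonged to Sh3bgr (0.47), Cyp26b1 (0.42), Stra8 (0.42), Wfdc10 (0.34) and Hspb1 (0.33). Cyp26b1, the enzyme that breaks down retinoic acid around the cords, ran from 4.09 CPM at PND0 to 312 CPM in a PND6 pool and 903 CPM at PND14. Each of these 6 slopes lost its call without PND14 (adjusted p between 0.213 and 0.890), and Stra8, a gene of germ cells entering meiosis, is one of the germ cell markers summed above. The slope of Tpm2 (0.13) lost its call as well (adjusted p = 0.0258 with PND14 and 0.0592 without it).

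The falls in Acta2-high cells were led by Pdyn (-1.17 per day, the dynorphin precursor), Robo2 (-0.57), Dlk1 (-0.47), Hmcn1 (-0.38), Pyurf (-0.35) and Inhba (-0.31). Dlk1 ran from 315 CPM at PND0 and 409 CPM at PND1 to 40.1 CPM at PND5 and 0 CPM at PND14, and Meg3 from 623 to 48.01 CPM (-0.24 per day). All of these falls lost their call without PND14 (adjusted p between 0.230 and 0.615). Without that pool the slope of Dlk1 was -0.28 and that of Meg3 -0.15.

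**Figure D4:**
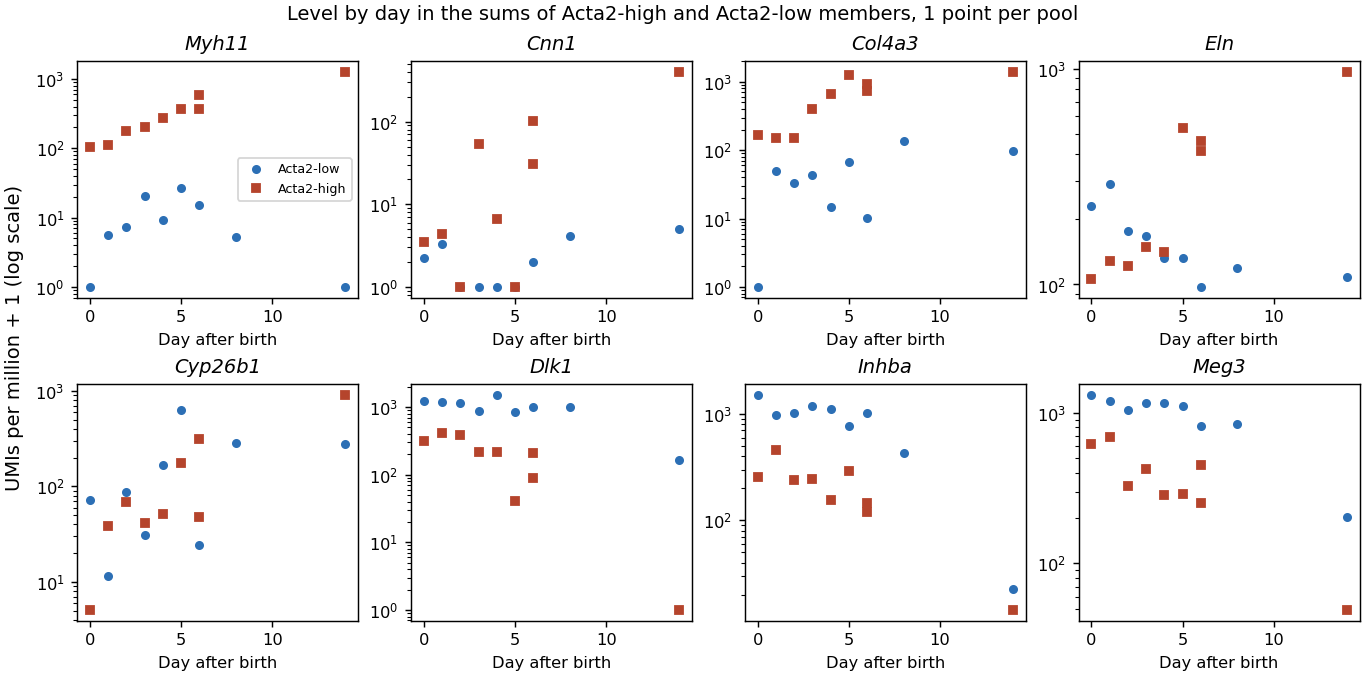
CPM (plus 1, log axes) of 8 genes by day after birth in Acta2-high (red squares) and Acta2-low (blue circles) sums, 1 point a pool. Myh11 and Col4a3 climb in Acta2-high cells from PND0 to PND6 before the PND14 point, while for Dlk1, Inhba and Meg3 the PND14 point is the lowest of each class.

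In Acta2-low cells 19 of 10759 genes rose with day (0.177%) and 32 fell (0.297%, 0.474% in either direction) over 9 sums, and DESeq2 called 81 rises and 237 falls. Without the PND14 pool edgeR called 0 genes, with 641 at an unadjusted p under 0.05. The rises were led by H2-K1 (0.49 per day), Prss50 (0.48), Sycp1 (0.42), Hspa2 (0.39), Mov10l1 (0.34) and Epcam (0.34), of which Prss50, Sycp1, Hspa2 and Mov10l1 are genes of meiotic or other germ cells. Sycp1 stood at 572 CPM at PND14, against 9.08 to 175 CPM in the other sums, beside the 2223 CPM of summed germ cell markers in that sum. The falls were led by Hbb-bt (-1.32) and Hbb-bs (-1.19), haemoglobin genes with near-identical sequences, Pdyn (-0.82), Col25a1 (-0.70), Igfbp5 (-0.68) and Ly6h (-0.62). Inhba fell from 1512 CPM at PND0 to 432 CPM at PND8 and 21.8 CPM at PND14 (-0.36 per day, adjusted p = 0.0238, and -0.15 without PND14, adjusted p = 0.539), and Cxcl12 from 1530 to 637 and 157 CPM at the same ages (-0.23, adjusted p = 0.00791, and 0.539 without PND14). For these cells a change with day beyond the PND14 pool was not detectable.

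Acta2-low members were then compared with fetal Acta2-low cells under the same thresholds. Sorting by the reporters before birth and the other collection after birth coincide with age here, so that age and collection cannot be told apart. Of 9748 genes 140 were higher after birth (1.44%) and 91 lower (0.934%, 2.37% in either direction) in 9 postnatal against 10 fetal sums, and DESeq2 called 279 and 239. When only the E18.5 sums were set against PND0 to PND2, edgeR called 0 genes, with 465 at an unadjusted p under 0.05.

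Cd34, Igf1 and Dcn, which were also higher in Acta2-low than in Acta2-high members, were higher after birth. Cd34 averaged 522 ± 193 CPM in postnatal and 77.9 ± 115.99 CPM in fetal sums (log2 fold change 2.80 ± 0.69, adjusted p = 0.0249), Igf1 718 ± 208 and 264 ± 226 CPM (1.47 ± 0.39, adjusted p = 0.0403) and Dcn 1744 ± 544 and 859 ± 420 CPM (1.07 ± 0.27, adjusted p = 0.0278). These 3 calls were lost without any of 2, 14 and 5 of the 19 pools (adjusted p up to 0.0534, 0.077 and 0.0642). Penk ranged from 286 to 724 CPM after birth and from 0.416 to 272 CPM before it, with no overlap (2.73 ± 0.56, adjusted p = 0.00843). With it the rises among non-overlapping genes included C1s1 (3.96), a complement protease, Tuba3a (3.28), a tubulin with near-identical copies, and Cd200 (2.20).

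Wt1 and Igfbp5 were lower after birth. Wt1, a factor of the gonadal ridge, averaged 14.9 ± 8.20 CPM in postnatal and 122.2 ± 78.6 CPM in fetal sums (-2.92 ± 0.48, adjusted p = 0.000979), and Igfbp5 45.2 ± 49.8 and 467 ± 159 CPM (-3.31 ± 0.57, adjusted p = 0.00161). The retinoic acid genes changed in both directions, with 2 higher and 2 lower of 11 tested. Cyp26b1 (175 ± 199 against 18.1 ± 28.9 CPM) and Crabp1 were higher, and Aldh1a2, which makes retinoic acid (10.53 ± 6.69 against 74.9 ± 61.4 CPM), and Crabp2 were lower. The call of Crabp1 was lost without any of 8 pools, PND14 among them (2.16, adjusted p = 0.0284, and 0.0927 without PND14). Between E18.5 and PND0 to PND2 alone the log2 fold change of Aldh1a2 was 0.26. The largest falls without overlap were Vash2 (-1.85, adjusted p = 0.0458, and 0.053 without PND14), Arid2 (-1.71), Cux1 (-1.23), Ssbp3 (-0.98) and Cbx1 (-0.97). Germ cell markers were also higher after birth, with Dazl at 154 ± 136.9 against 29.4 ± 27.9 CPM (2.37 ± 0.50) and Dmrt1 and Uchl1 called as well (Uchl1 with an adjusted p of 0.0435, and 0.0744 without PND14). The sums of all germ cell markers ran from 197 to 2223 CPM after birth and from 85.3 to 400 CPM before it.

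The difference between the classes was itself compared across birth, a test that was added after the data had been seen. In 9 fetal pools 25 of 10249 genes were higher in Acta2-high cells (0.244%) and 12 lower (0.117%, 0.361% in either direction). The contractile genes separated the fetal classes as well, with 9 of 17 tested genes higher. Myh11 averaged 96.5 ± 59.4 CPM in fetal Acta2-high and 6.48 ± 3.38 CPM in fetal Acta2-low sums (log2 fold change 3.78 ± 0.42, adjusted p = 2.7e-05), and Tpm2 387 ± 123.1 and 176 ± 54.1 CPM (1.16 ± 0.12). None of 18 tested basement membrane genes and none of 14 imprinted genes passed the test between the fetal classes. Of the 18, 8 lay above 0 and 10 below. Col4a3 (2.01 ± 0.60) and Col4a4 (1.40 ± 0.42) were higher in fetal Acta2-high sums in 8 of 9 pools each, without a call (adjusted p = 0.286 for both). The split at 500 CPM also set the classes less far apart before birth, since Acta2 averaged 1033 ± 163 and 202 ± 63.1 CPM in the fetal and 2052 ± 721 and 88.9 ± 44.6 CPM in the postnatal classes, and the part of this in the next result was not tested.

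In a fit of class, birth and their product over 17 pools, the log2 difference of Acta2-high over Acta2-low was shifted upwards after birth for 34 of 11280 genes and downwards for 12 (0.301% and 0.106%, 0.408% in either direction), against 154 and 88 by DESeq2. For Dlk1 the difference was -0.03 on the log2 scale before birth and -2.68 after it (change -2.63 ± 0.39, adjusted p = 0.000496), with fetal levels of 405 ± 120.8 CPM in Acta2-high and 450 ± 216 CPM in Acta2-low sums. Meg3 went from -0.07 to -1.54 (-1.46 ± 0.20, adjusted p = 0.000135) and Cdkn1c from -0.07 to -3.60 (-3.48 ± 0.51, adjusted p = 0.000496). The fetal differences of these 3 imprinted genes lay within their errors (SE 0.14, 0.12 and 0.22), and after birth Dlk1 and Meg3 lay above the fetal level in Acta2-low sums and below it in Acta2-high sums, by their means.

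Col4a1 gained its difference by the same measure, from -0.02 to 1.72 (change 1.75 ± 0.28, adjusted p = 0.000877), and so did Col4a2 (1.94 ± 0.30) and Dusp6 (3.50 ± 0.39, adjusted p = 6.36e-06). Igfbp5 (3.07 ± 0.49), Tpm1 (1.10 ± 0.19), Tmem204 (3.82 ± 0.89), Foxs1 (3.74 ± 0.84) and Enpep (3.80 ± 0.87) also had a larger difference after birth. Dcn (-1.04 ± 0.24), Col5a2 (-2.03 ± 0.44) and Col1a1 (-0.90 ± 0.21) changed in the other direction, and Col1a1 had been higher in fetal Acta2-high cells (0.57 ± 0.09, adjusted p = 0.00501). The calls of Tmem204, Foxs1, Enpep, Dcn, Col5a2 and Col1a1 were each lost without any of 8 to 15 of the 17 pools. For Myh11 the change was 1.47 ± 0.72 and did not pass (adjusted p = 0.639), nor did those of Tpm2, Col4a3, Inhba, Igf1 and Cd34. Without PND14 the change of Igf1 passed (-1.38, adjusted p = 0.128 with PND14, and -1.69, adjusted p = 0.00491 without it).

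**Figure D5:**
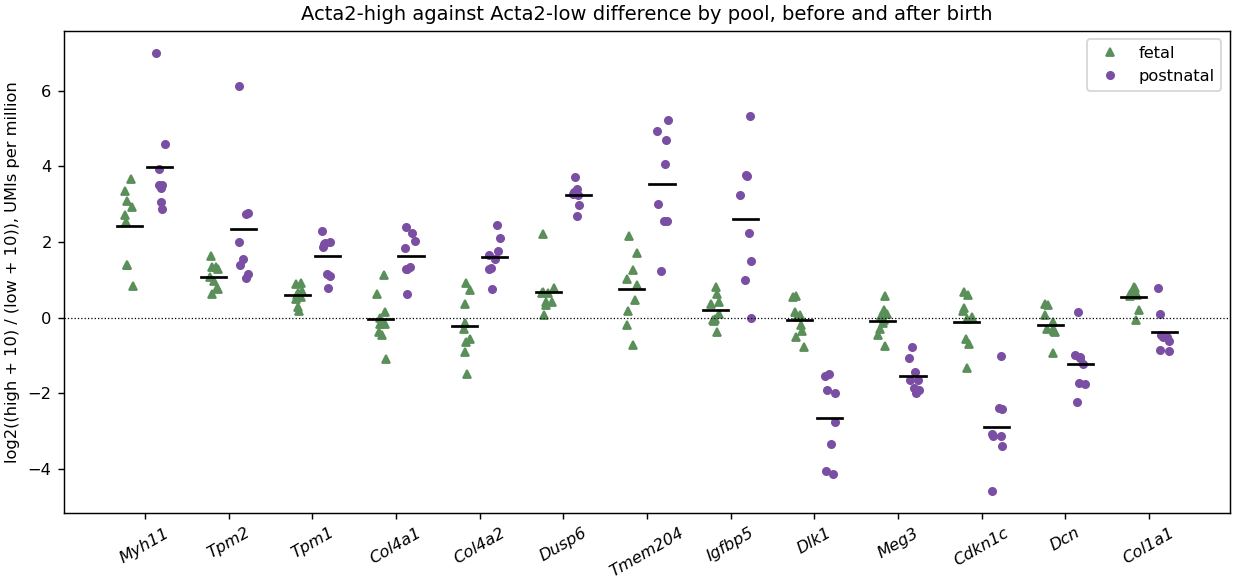
Log2 ratio of the Acta2-high to the Acta2-low sum of a pool, with 10 CPM added to each, for 13 genes in 9 fetal pools (green triangles) and 8 postnatal pools (purple circles), with bars at the means. For Myh11 and Tpm2 all points of both ages lie above 0, whereas for Dlk1, Meg3 and Cdkn1c the fetal points lie around 0 and all postnatal points below it.

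Members of both classes together were last set against the Sox9-positive cells of 7 pools. Both classes were added into 1 sum per pool, so a gene that was higher in members need not be high in both. Of 10528 genes 1468 were higher in members (13.9%) and 1158 lower (11%, 24.9% in either direction). Nearly the whole list of fibrillar collagens and matrix was higher, with 23 of 24 tested genes and 1 lower, Fbln2. Col1a1 ranged from 589 to 1632 CPM in members and from 12.3 to 86.1 CPM in Sox9-positive cells (log2 fold change 5.22 ± 0.34, adjusted p = 1e-07). Of 14 interstitial progenitor genes 11 were higher, among them Pdgfra (320 ± 83.1 against 10.3 ± 8.84 CPM) and Tcf21 (789 ± 245 against 14.1 ± 9.45 CPM), and Wt1 and Gata4, which Sertoli cells also use, were lower.

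The hedgehog pathway divided by role. Dhh, the ligand that Sertoli cells secrete, was at 3.24 to 20.2 CPM in members and 259 to 469 CPM in Sox9-positive cells (-5.48 ± 0.29, adjusted p = 2.87e-08). The receptor Ptch1 (2.43 ± 0.27), the transcription factor Gli1 (7.02 ± 0.68) and the target and inhibitor Hhip (6.14 ± 0.58) were higher in members, as were 8 of the 12 tested genes. Gli1 averaged 33.9 ± 11.9 CPM in members and 0.274 ± 0.235 CPM in Sox9-positive cells. Ligands for germ cells divided as well, with Kitl lower (37.5 ± 15.96 against 396 ± 90.3 CPM) and Cxcl12 and Igf1 higher in members (647 ± 289 against 27.5 ± 25.97 CPM, and 528 ± 132.1 against 37.4 ± 19.8 CPM).

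Of 13 imprinted genes tested 11 were higher in members and none lower, Meg3 at 674 ± 283 against 16.2 ± 15.3 CPM and Dlk1 at 631 ± 325 against 35.9 ± 21.5 CPM, so the imprinted genes that separated the classes also separated the members from Sertoli-marked cells. The contractile list gave 14 higher of 17 tested, with Acta2 among those listed, which split the members but did not choose them, and 1 lower (Hspb1). Contractile genes such as Myh11 and Tpm2 had also been higher in Acta2-high than in Acta2-low members. The largest rises without overlap were Carmn (8.68), Asb2 (7.79), Hoxd10 (7.34), C1qtnf2 (7.33) and Ddr2 (7.19), a collagen receptor. Of these, Carmn and Asb2 had also been called higher in Acta2-high than in Acta2-low members. The largest falls were Edn1 (-6.58), the endothelin that the receptor Ednrb binds, Ccdc160 (-6.31), Slc52a3 (-5.98), Amh (-5.94), the Müllerian hormone of Sertoli cells, and Pla2g5 (-5.93). Edn1 averaged 108.6 ± 71.4 CPM in Sox9-positive cells and 0.880 ± 0.904 CPM in members, while its receptor was found in the Acta2-high members. None of the 13 mitochondrial transcripts passed the test (median 0.02).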

How the data were processed

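The authors prepared 3′-end libraries of single mouse testis cells from oligo(dT)-primed cDNA. Per the labels and the study's methods, reads were split by barcode with UMI-tools, aligned to mm10 with STAR, assigned with featureCounts, and UMIs were counted with PCR duplicates removed. The deposited values are these UMI counts per gene and cell, without normalization. CASAVA 1.8 is named in the submitters' processing notes. Columns of 7640 cells outside the wild-type groups compared were not used.

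Cells with over 2000 genes and 10000 to 1000000 UMIs were kept. The members and gene lists were chosen with earlier results of these data known. No doublet caller was run. Age and replicate came from the cell names, and cells of a pool and class were summed where there were at least 5. Sums were tested with edgeR 4.0.16 (TMM, filterByExpr, quasi-likelihood test, Benjamini-Hochberg adjustment) in R 4.3.3, and DESeq2 1.42.0 was an alternative. Each adjusted p in the text is from edgeR unless DESeq2 is named. The pool was a block in the comparison of classes, where both classes come from the same pool, and in that with Sox9-positive cells. The slopes used day as a number. The comparisons of fetal classes, and of the class difference across birth, were added after the data had been seen. Shares were tested with 100000 permutations (SciPy 1.17.1), and their intervals are Clopper-Pearson at 95% and cover counting error only. The tests were run on simulated counts as well, whose means held planted changes but no effect of the pool. A pool that stands apart, such as PND14 replicate 1, was thus not covered.

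Among genes at an FDR of 0.05 and a mean log2 CPM of at least 5, those named were the 10 largest rises and falls with 1 direction in every pool between classes, the 6 steepest slopes each way, and the 5 largest each way without overlap in the other comparisons. Members of the lists, genes of the fetal class comparisons and genes given as examples were named besides. Genes without a symbol of their own and the 5 genes that chose the cells were left out. Alternatives were another normalization, no filter on low counts, 3 or 10 cells per sum, and other thresholds for Acta2, Cyp11a1 and UMIs. A block for the replicate number, no block for the pool, and leaving out each pool in turn were tried as well. Fetal cells sorted as reporter-positive and Helq-null cells were not used here. Promoter windows came from RefSeq and gene positions from GENCODE, both on mm10. Some genes that the rule or the lists would name are not reported here.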

Additional observations from a re-analysis of the deposited data

Results flagged for a closer look

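Of 148 groups of pool sums examined, 26 held a sum whose gap to its nearest neighbour was large for the range of the group. How many chance would flag is not known, since the CPM are skewed, span PND0 to PND14 and belong to chosen genes. Of the 26, 16 were sums of PND14 replicate 1 and 10 came from other pools. In the Acta2-high sum of PND14, Myh11 was at 1270 CPM (next 579), Art3 at 645 (next 110.8), Lmod1 at 1015 (next 351), Flna at 691 (next 422), Hspb1 at 1035 (next 264), Gli1 at 97.4 (next 47.6), the Sertoli marker Defb19 at 491 (next 190) and Peg3 at 0.0 (next 155). In the Acta2-low sum of PND14, Dner was at 3.40 CPM (next 0.845), Fbxl22 at 112.9 (next 31.9), Art3 at 31.3 (next 11.8), Col15a1 at 129.3 (next 34.5), Meg3 at 202 (next 811), Peg3 at 39.5 (next 296), Igf1 at 233 (next 641) and Tcf21 at 106.1 (next 511).

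In the other pools, Acta2-high sums stood apart for Dner at PND6 replicate 1 (184 CPM, next 65.5), Agtr2 at PND1 replicate 2 (81.97, next 37.6), Gas2 at PND2 replicate 1 (34.5, next 12.1), Col4a1 at PND5 replicate 2 (1013, next 738), Col15a1 at PND4 replicate 2 (263, next 83.7) and Nr5a1 at PND1 replicate 2 (161, next 71.6). Acta2-low sums stood apart for Ednrb at PND2 replicate 1 (2.53 CPM, next 1.02), Dhrs7 at PND6 replicate 1 (227, next 93.6), Col5a2 at PND6 replicate 1 (443, next 205) and Nr4a1 at PND5 replicate 2 (631, next 276).

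The difference between the classes changed across birth by the test of the difference itself for 14 of the 23 named genes examined in edgeR. Over all genes tested it changed for 46 of 11280 (0.408%). The 23 genes were named with results of these data known, so their share does not measure how common such a change was. On the log2 scale, postnatal minus fetal, the change was 3.82 for Tmem204, 3.80 for Enpep, 3.74 for Foxs1, 3.50 for Dusp6, 3.07 for Igfbp5, 1.94 for Col4a2, 1.75 for Col4a1 and 1.10 for Tpm1. It was -3.48 for Cdkn1c, -2.63 for Dlk1, -2.03 for Col5a2, -1.46 for Meg3, -1.04 for Dcn and -0.90 for Col1a1. Sorting by the reporters before birth and the other collection after it coincide with this contrast and cannot be told apart from it.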

How the results depend on the processing

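The number of called genes moved more than the directions of single genes. Values are percent of the genes tested in that setting, with counts beside some. DESeq2 called 5.99% (492 genes) between classes against 2.42% (199) by edgeR, 2.96% (318) against 0.474% (51) by day in Acta2-low cells, 1.43% (150) against 0.363% (38) by day in Acta2-high cells, 5.31% (518) against 2.37% (231) between postnatal and fetal cells and 2.15% (242) against 0.408% (46) for the changed class difference. Without the filter on low counts, where far more genes are tested, the first 4 comparisons gave 2.21% (454), 1.68% (331), 1.22% (227) and 5.51% (1209). With cells of at least 50000 UMIs, hence fewer cells, the classes gave 0.579% (52) and the Acta2-low slope 0.292% (31). With at least 10 cells a sum, which leaves fewer sums, the Acta2-high slope gave 0 (edgeR, 490 at an unadjusted p under 0.05), the slope of Cyp26b1 was -0.074, and the fetal comparison gave 0.289% (37). The comparison of classes could not be fitted at that minimum. The Acta2-low slope gave 0.0186% (2) on log2(day + 1) and 0 as PND0 to PND4 against PND5 to PND14 (edgeR, 484 at an unadjusted p under 0.05), and the Acta2-high slope 0.257% (22) as these groups. The fetal comparison gave 0 for E18.5 sums against PND0 to PND2, where Aldh1a2 was at 0.26, and 5.76% (619) with both classes together, where Tpm1 was at 0.11. The correlation of the Acta2-high share with day was -0.0052 at 250 CPM of Acta2 and -0.164 with members thinned to 50000 UMIs. The cause of these shifts was not tested except where fewer cells, sums or genes are named.

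With each pool left out in turn, the classes gave 1.51% to 3.01%, the Acta2-low slope 0 to 0.717%, the Acta2-high slope 0.0761% to 0.595%, the fetal comparison 1.51% to 3.80%, the comparison with Sox9-positive cells 20.9% to 27.1%, the changed class difference 0.235% to 0.832%, and the correlation -0.0606 to 0.271. The counts moved furthest for the classes without PND4 replicate 2 (1.51%) or PND6 replicate 1 (1.52%), for the Acta2-low slope without PND2 replicate 1 (0.247%) or PND14 replicate 1 (0), and for the Acta2-high slope without PND0 replicate 1 (0.238%), PND1 replicate 2 (0.176%), PND2 replicate 1 (0.219%), PND5 replicate 2 (0.595%) or PND14 replicate 1 (0.0761%). They moved furthest for the fetal comparison without E14.5 replicate 2 (1.51%) or E18.5 replicate 2 (3.80%), and for the changed difference without PND6 replicate 1 (0.235%), E16.5 replicate 2 (0.270%) or E18.5 replicate 1 (0.832%). The share of higher calls between classes was 66.3%, and it was 55.3% by DESeq2, 53.8% without PND14 replicate 1 and 52.3% without cells high in germ, Sertoli or Leydig markers (220 calls).

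With the replicate number as a block, 0.353% (38) of genes were called for the Acta2-low slope, 0.277% (29) for the Acta2-high slope and 2.34% (228) for the fetal comparison. Without the pool as a block, which drops the pairing within pools, 2.02% (166) were called between classes and 23.4% (2463) against Sox9-positive cells. The depth of the shallowest member (11491 UMIs) and the 5 cells of the smallest sums limit what can be said of genes at a few CPM.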
